A study of Vitis vinifera with 6 samples.

Results

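The steady abundant genes of the ripening grape berry were those whose transcript level hardly differed between 6 vineyard plots, 3 of which had received a protein hydrolysate and 3 urea. They were chosen from the measured values. A gene entered when its mean over the 6 libraries was at least 100 and under 1000 CPM (the count of a gene relative to the scaled size of its library) and when its highest library was at most 1.2 times its lowest. By this rule 296 genes were members, of 16030 genes abundant enough to be tested and 35134 in the table. The rule leaves out 5 genes, of which 0 met its limits. A total of 1972 genes, members included, lay in the same range of abundance and are called the abundance class below. Because the rule used the values of both treatments, the levels, ranges and ratios of the members describe what was selected, and any count of test calls among them is given as a description only.

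Steadily expressed genes are often those of basic cell functions such as protein synthesis and turnover, the cytoskeleton and membrane traffic, and a few of them serve as internal references when the transcripts of other genes are measured by quantitative PCR. In grape, the onset of ripening starts a phase in which the berry softens, takes up sugar and water, loses acids and, in dark cultivars, colours. Many transcripts change within days in this phase. All libraries here came from a single time, so "steady" refers to plots and treatments at that time and not to the course of ripening. The files give the genes as annotation identifiers only. None of the identifiers (0) could be matched to the reference table, so no member is given a name or role, and its sequence is not shown. The first digits of a grapevine identifier name its chromosome, or are 00 where the sequence has no assigned place.

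The samples were deseeded berries of the early black table grape Black Magic (Vitis vinifera), from grafted vines 12 years old in a covered vineyard. Vines of the GDPH plots received a corn gluten-derived protein hydrolysate (SURNAN), a mixture of peptides and amino acids, and vines of the control plots received urea. Both were applied by ferti-irrigation at the onset of ripening, veraison, at 1.25 kg of nitrogen per hectare, and no library analysed here came from vines without either. Each library was a pool of berries from the 7 vines of 1 plot, taken 14 days later, and 3 of 4 plots per treatment were sequenced. The replicates were therefore plots of a single vineyard in a single season. The GDPH libraries held 15959768 to 18763377 estimated counts and the urea libraries 15092687 to 16390121, so that each member rests on many reads: the fewest counts of any member in a library were 1409. Whether the berries were free of seed tissue could not be checked against markers without gene names. In pooled tissue, fewer cells of a type and less RNA per cell cannot be told apart, and a steady level says nothing of either by itself.

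The narrowest range of the class belonged to Vitvi11g00700, on chromosome 11 by its identifier. It had 275, 274 and 275 CPM in the GDPH libraries, against 278, 282 and 275 CPM in the urea libraries. Its highest library was 1.03 times its lowest, and the treatments overlapped. Vitvi04g00450 had 202, 209 and 207 CPM under GDPH and 204, 203 and 206 CPM under urea, a ratio of highest to lowest of 1.03. Vitvi19g00227 had 178, 181 and 178 CPM under GDPH and 184, 186 and 179 CPM under urea, a ratio of 1.04. In both genes the values of the treatments interleaved. The gene with the identifier next to the first, Vitvi11g00701, had 201, 208 and 198 CPM under GDPH and 202, 201 and 202 CPM under urea. Its urea libraries lay within 1.01 times of each other and its GDPH libraries within 1.05 times. Vitvi01g02023 had 123, 129 and 125 CPM under GDPH and 127, 130 and 128 CPM under urea. The sixth narrowest, Vitvi10g00767, had 277, 273 and 273 CPM under GDPH and 271, 262 and 262 CPM under urea. It was the only gene of these 6 whose GDPH libraries all lay above its urea libraries, with means of 274 ± 2.35 CPM under GDPH and 265 ± 4.8 CPM under urea (SD, n = 3 each).

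**Figure D1:**
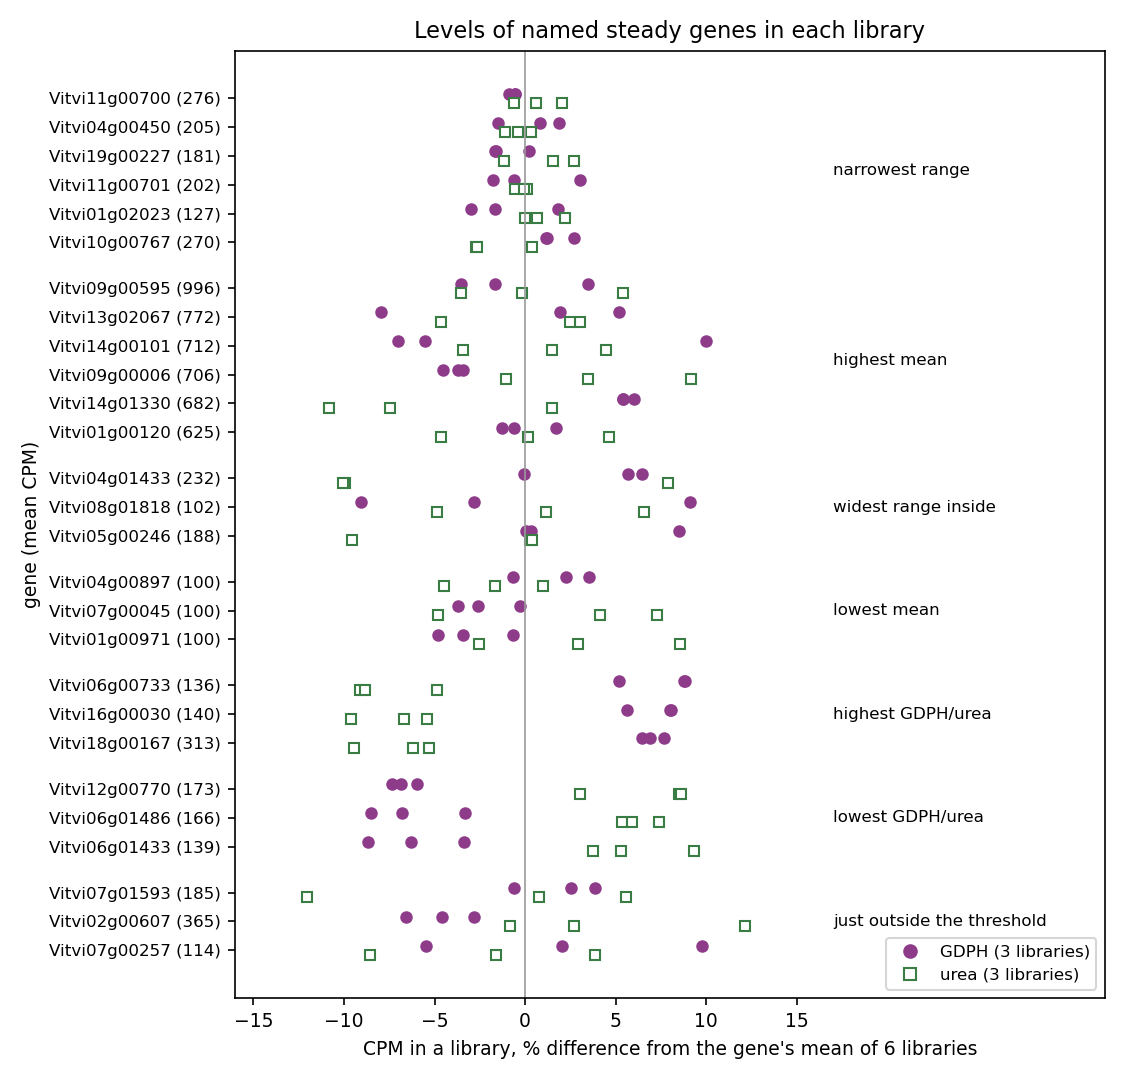
Each row is a gene with its mean CPM in brackets, and each point is 1 library as the percentage difference from the mean of that gene, with 3 GDPH libraries as filled circles and 3 urea libraries as open squares. The 6 genes with the narrowest range crowd around 0, while the members with the highest and lowest ratio of GDPH to urea show the treatments apart on either side of it.

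The most abundant member was Vitvi09g00595, on chromosome 9, which sat just under the upper limit of the rule at a mean of 996 CPM. It had 979, 1030 and 960 CPM under GDPH and 960, 1049 and 994 CPM under urea. Replicate 2 was highest in both treatments. Vitvi13g02067 followed with 812, 787 and 710 CPM under GDPH and 795, 791 and 736 CPM under urea, and replicate 3 was lowest in both. Vitvi14g00101 had 783, 673 and 662 CPM under GDPH and 744, 688 and 723 CPM under urea. Its GDPH libraries spread 1.18-fold and its urea libraries 1.08-fold. Vitvi01g00120 had 621, 635 and 617 CPM under GDPH and 596, 626 and 654 CPM under urea, with the narrower spread under GDPH.

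Among the 6 most abundant members, 2 had treatments that did not overlap. Vitvi09g00006 had 680, 682 and 674 CPM under GDPH, against 771, 731 and 699 CPM under urea. Vitvi14g01330 had 719, 719 and 723 CPM under GDPH, against 608, 631 and 692 CPM under urea. In both genes the GDPH plots were nearly identical, within 1.01 times of each other, and the urea plots were spread 1.1-fold and 1.14-fold. At the other end of the abundance range stood Vitvi04g00897, with 99.5, 104 and 102 CPM under GDPH and 101, 95.7 and 98.5 CPM under urea. Vitvi07g00045 and Vitvi01g00971 had means of 100.4 CPM each, with ratios of highest to lowest of 1.13 and 1.14. Of the members, 208 averaged 100 to under 200 CPM, 79 averaged 200 to under 500 CPM and 9 averaged 500 CPM or more.

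The members were not evenly steady, and the threshold cut through a continuum. The median ratio of highest to lowest was 1.14 and 53 members kept within 1.1. The widest member, Vitvi04g01433, had 232, 247 and 246 CPM under GDPH and 209, 209 and 251 CPM under urea, a ratio of 1.1997. The next, Vitvi08g01818, was widest among the GDPH plots, at 111, 99.0 and 92.7 CPM, against 96.9, 103 and 109 CPM under urea. Vitvi05g00246 had 188, 188 and 204 CPM under GDPH and 170, 188 and 189 CPM under urea. Just outside the threshold, Vitvi07g01593 had 184, 192 and 190 CPM under GDPH and 163, 186 and 195 CPM under urea, a ratio of 1.2001. Vitvi02g00607 and Vitvi07g00257 followed at 1.2003 and 1.2004. Genes on either side of 1.2 were thus alike in range.

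Between the treatments the members differed little, as the rule required. The log2 ratio of GDPH over urea in the edgeR fit ran from -0.19 to 0.22, with a median of 0.026, against a median of 0.12 in the abundance class and of -0.0050 over all tested genes. It was above 0 in 190 members (64.2%) and below 0 in 106, and it was above 0 in 66.5% of the class. In 236 members (79.7%) it lay within 0.1 of 0, against 22.8% of the class. The 95% interval of the ratio lay wholly within 1.2-fold in either direction for 186 of the 296 (62.8%), against 10.2% of the class. It reached beyond 1.2-fold for the other members, so a level that passed as steady is known to no better than that precision. Choosing genes by a narrow range in the same libraries also narrows these intervals and limits the ratios. The 95% therefore need not hold for members, and these counts describe the selection.

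The highest ratio was that of Vitvi06g00733, on chromosome 6. It had 143, 148 and 148 CPM under GDPH, against 124, 124 and 130 CPM under urea, a log2 ratio of 0.22 (SE 0.070). Vitvi16g00030 had 151, 151 and 148 CPM under GDPH and 132, 126 and 131 CPM under urea (log2 ratio 0.21, SE 0.070). Vitvi18g00167 had 337, 333 and 335 CPM under GDPH and 294, 284 and 297 CPM under urea (log2 ratio 0.20, SE 0.074). In these 3 genes every GDPH library exceeded every urea library, and the step between treatments was larger than the spread within either. The lowest ratio was that of Vitvi12g00770, with 161, 160 and 162 CPM under GDPH, against 178, 187 and 188 CPM under urea (log2 ratio -0.19, SE 0.072). Vitvi06g01486 had 161, 155 and 152 CPM under GDPH and 175, 176 and 179 CPM under urea. Vitvi06g01433, also on chromosome 6, had 134, 130 and 127 CPM under GDPH and 152, 146 and 144 CPM under urea. Each of these 3 genes was lower in every GDPH plot.

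Such separation was seen in 60 members, of which 45 had all GDPH libraries above all urea libraries and 15 had them below. Over all tested genes 18.5% had GDPH above and 19.7% had GDPH below without overlap. In the abundance class the shares were 37.2% and 16%, so the class leaned the same way as the members, at 15.2% and 5.07%. The edgeR quasi-likelihood test called 0 members at an adjusted p under 0.05, against 14.7% of all tested genes. The lowest adjusted p of a member was 0.080, that of Vitvi06g00733. At an unadjusted p under 0.05 the count was 13 members, 10 higher and 3 lower in GDPH, against 31.5% of all tested genes. DESeq2 called 3 members, all higher in GDPH, where it called 9.50% of all tested genes higher. They were Vitvi06g00733, Vitvi16g00030 and Vitvi18g00167, with adjusted p of 0.035, 0.041 and 0.028 in DESeq2 and of 0.080, 0.088 and 0.11 in edgeR. With the replicate number as a block edgeR called 0 members and 22.0% of all tested genes, 3534 against 2353 without the block. Leaving out 1 library at a time reduced the 2353 calls to 1393, 709 and 1443 without GDPH replicate 1, 2 or 3 and to 1428, 555 and 1403 without urea replicate 1, 2 or 3. Since the rule limits the difference between treatments, nothing is read from these counts of members.

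Most members spread more than counting error alone gives, while in a few the spread was no larger than its average. The coefficient of variation over the 6 libraries had a median of 5.11% in members, where counting error alone gives a median of 2.00% at their depth. In the abundance class the same medians were 13.4% and 1.90%. It was at most 5% in 137 members and ran from 1.11% in Vitvi11g00700 to 8.55% in Vitvi06g00733. The chi-square per degree of freedom, which averages 1 when plots differ by counting error only, had a median of 7.01 in members and 55.4 in the class. It was at most 1 in 5 genes of the class. These were Vitvi04g00450 at 0.53, Vitvi11g00700 at 0.56, Vitvi01g02023 at 0.83, Vitvi11g00701 at 0.92 and Vitvi19g00227 at 0.96. So small a spread at this depth keeps a gene within the rule, so all 5 had to be members. Counting error alone gives values above 1 as well as below, so 5 is not the number of genes free of other variation. Vitvi14g01330, read 10000 to 12835 times per library, had the largest value of a member, 60.3, and Vitvi09g00595 had 22.8.

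**Figure D2:**
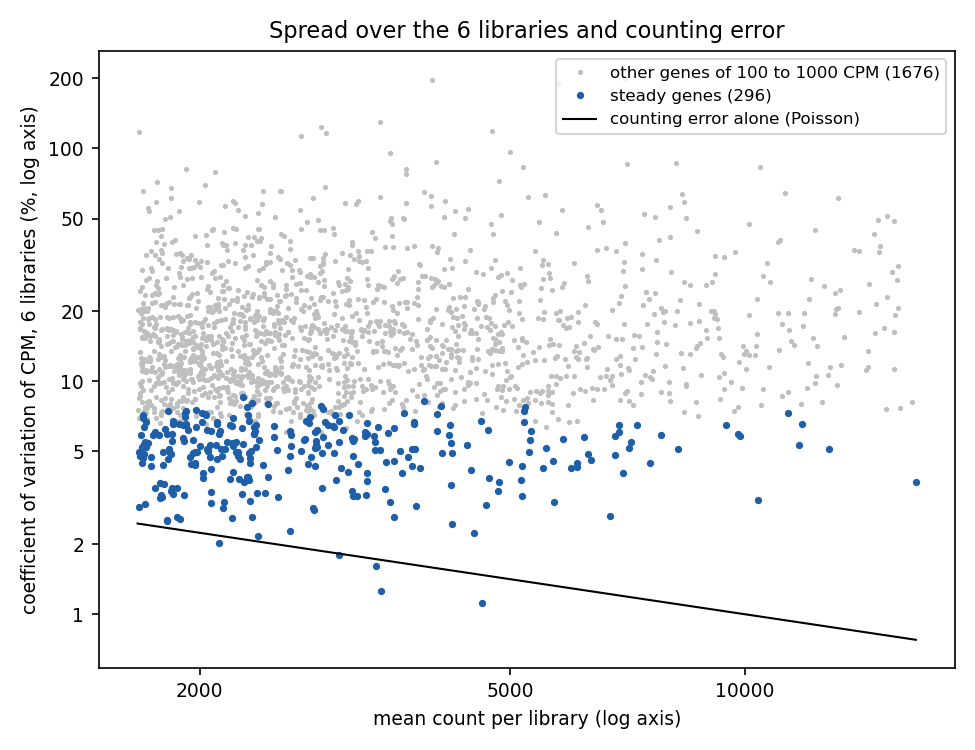
The coefficient of variation of CPM over the 6 libraries (%) is plotted against the mean count per library, both on log axes, for 296 steady genes and 1676 other genes of the abundance class. The line is the variation that counting error alone gives, and the 5 genes with a chi-square per degree of freedom of at most 1 lie on or below it.

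Many more genes were steady within each treatment than over all 6 plots. A range over 6 libraries is wider than a range over 3 by their number alone, so fewer genes pass over 6 in any case. Of the 1972 genes of the class, 1179 (59.8%) kept within 1.2-fold among the 3 GDPH plots and 1191 (60.4%) among the 3 urea plots. Both held for 859 genes, and 296 of these were members. The remaining 563 genes were steady within each treatment and wider than 1.2-fold over all 6 plots. In 345 of them all GDPH libraries lay above all urea libraries and in 136 below. Over all tested genes 18.5% and 19.7% did so, and in the class 37.2% and 16%. The 563 genes had a median absolute log2 ratio of 0.25, against 0.052 in members. Of these genes edgeR called 127 higher and 77 lower in GDPH, or 36.2%, against 25.4% of the class and 14.7% of all tested genes. Genes chosen as narrow within treatments and wide over all plots must lie apart between treatments, so these counts describe the selection. Within treatments the members were about equally narrow, with a median ratio of highest to lowest of 1.08 among GDPH plots and 1.08 among urea plots, against 1.16 and 1.16 in the class.

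Steadiness in a treatment went along with steadiness in the other. Here the 2 measures come from separate libraries. Of the 1191 genes steady among urea plots, 859 (72.1%) were also steady among GDPH plots. Of the 781 genes that were not, 320 (41.0%) were. Between 100 and 200 CPM the shares were 74.9% and 39.1%, and between 200 and 1000 CPM 67.2% and 43.8%. The libraries of both treatments share the annotation, the counting procedure and the scaling, and genes are not independent, so the shares are given as a description. Plots of the same replicate number also deviated together, as described with the processing.

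**Figure D3:**
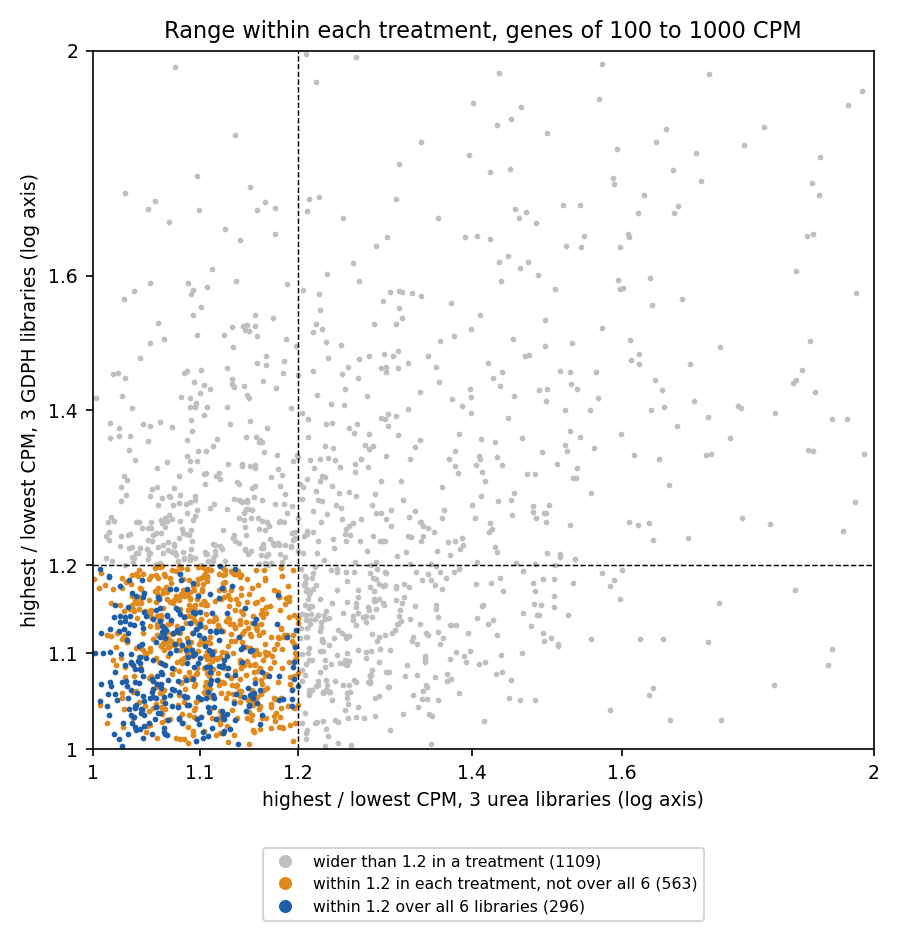
The ratio of highest to lowest CPM among the 3 GDPH libraries is plotted against that among the 3 urea libraries, both on log axes, for genes of the abundance class, and the 1.2-fold limit is dashed. The 296 members share the lower left corner with 563 genes that were steady within each treatment but not over all 6 plots, and 102 genes with a ratio above 2 are not drawn.

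The plot in which a member was highest was much the same as for the class, while the plot in which it was lowest was less alike. GDPH replicate 1 was the highest library in 116 members (39.2%), against 39.8% in the class. Urea replicate 1 was the lowest in 80 members (27.0%), against 26.1% in the class. GDPH replicate 3 was the lowest in 70 members (23.6%) and in 9.84% of the class, and urea replicate 3 in 39 members (13.2%) and in 24.7% of the class. GDPH replicate 1 was the lowest in 11.5% of members and 20.4% of the class, GDPH replicate 2 in 7.43% and 4.31%, and urea replicate 2 in 17.2% and 14.6%. The median deviation of the members from their own means was 0.038, 0.024 and -0.011 (log2) in GDPH replicates 1, 2 and 3, and -0.032, -0.016 and -0.0030 in urea replicates 1, 2 and 3. In the class it was 0.067, 0.064 and 0.017 under GDPH and -0.080, -0.055 and -0.064 under urea.

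A range over 5 plots is narrower than a range over 6 by their number alone, so every omission let more genes pass, and the omission of GDPH replicate 1 was the only one to raise the count by over 1.5 times. With GDPH replicate 1 left out the rule chose 484 genes, and 285 of them (58.9%) were members. Without GDPH replicate 2 or 3 it chose 351 and 350 genes, and 287 and 292 of them were members. Without urea replicate 1, 2 or 3 it chose 408, 331 and 391 genes, with 289, 289 and 286 members among them. So between 58.9% and 87.3% of the genes that were steady over 5 plots were also in the list over 6.

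**Figure D4:**
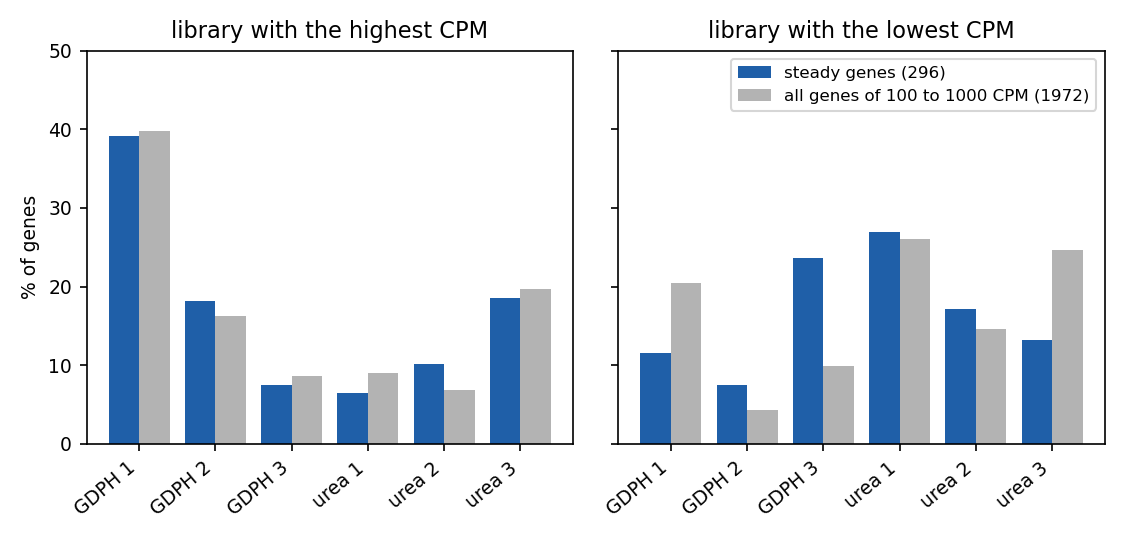
Bars give the percentage of genes whose highest CPM (left) or lowest CPM (right) fell in each library, for the 296 steady genes and for all 1972 genes of the abundance class. GDPH replicate 1 was most often the highest in both sets, and GDPH replicate 3 was the lowest in 23.6% of the steady genes and 9.84% of the class.

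Whether a gene counted as steady depended on the scale. The CPM values above were scaled by TMM, which sets library sizes so that the bulk of genes has a ratio near 1, with factors of 0.932 to 0.969 for GDPH libraries and 1.05 to 1.06 for urea libraries. With library totals alone, 152 of the 296 members (51.4%) kept within 1.2-fold, and with the deposited TPM, a measure per transcript length that sums to the same total in each library, 38 did (12.8%). The rule then chose 406 and 321 genes, and the members were 37.4% and 11.8% of these lists. The median log2 ratio of GDPH over urea in the members was 0.026 with TMM, -0.14 with totals and -0.26 in TPM. Over all tested genes it was -0.0050, -0.17 and -0.29, and in the abundance class it was 0.12, -0.040 and -0.16. The members thus followed the bulk of genes on each scale, and "steady" means steady relative to that bulk. The 321 genes that were steady in TPM had a median log2 ratio of 0.24 with TMM.

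In TPM every member had a lower mean in GDPH berries than in urea berries, and in 278 of 296 (93.9%) all GDPH values lay below all urea values. In the abundance class the mean was lower in 73.2% of genes and all values lay below in 40.7%, and over all tested genes all values lay below in 42.8%. The rule used this contrast, so these counts are a description. Vitvi11g00700 had 113, 114 and 120 TPM under GDPH, against 140, 145 and 142 TPM under urea, although it was the flattest member in CPM. Vitvi09g00595 had 450, 477 and 468 TPM under GDPH, against 541, 604 and 573 TPM under urea. The gene flattest in TPM among the members was Vitvi16g00030, one of those highest in GDPH by CPM, with 41.1, 41.5 and 42.6 TPM under GDPH and 44.1, 43.0 and 44.5 TPM under urea. On log2(TPM + 1) limma called 142 members, all lower in GDPH, where it called 24.1% of all tested genes lower. With library totals alone edgeR called 11 members, all lower, where it called 14.3% of all tested genes lower. The members together took 5.52% ± 0.029 of the counts of all tested genes in GDPH berries and 6.07% ± 0.082 in urea berries (SD, n = 3 each). A scaling factor multiplies every gene of a library alike and leaves this share as it is. The rule chose genes level in TMM CPM, so the share mirrors the TMM factors and is a description only. The summed TMM CPM of the members was 57241 to 59234 under GDPH and 56733 to 57981 under urea. The abundance class took 43.1% to 43.2% of all counts in the GDPH libraries and 45.2% to 45.6% in the urea libraries.

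**Figure D5:**
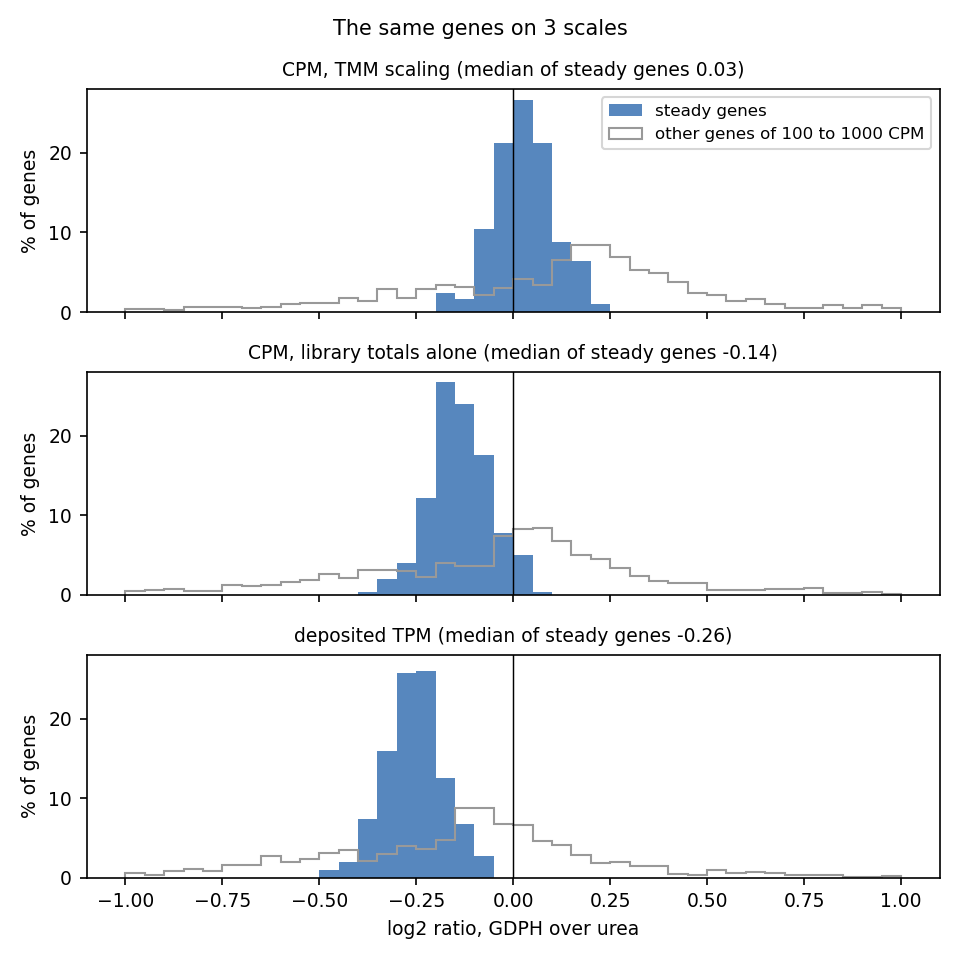
Histograms of the log2 ratio of GDPH over urea for the 296 steady genes (filled) and the other genes of the abundance class (outline), as a percentage of genes in bins of the same width, on 3 scales. The median of the steady genes moved from 0.026 with TMM scaling to -0.14 with library totals and -0.26 in TPM, and 97, 102 and 122 genes beyond 1 in either direction, of which 0 were steady genes, are not drawn.

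Some properties that the rule did not use are given beside the class. A gene's CPM divided by its TPM grows with transcript length but is only a rough guide to it. The median of this value was 1.76 in members, 1.53 in the class and 1.22 over all tested genes. Vitvi14g01330 had the highest value of the class, 13.1, so that a level of 682 CPM corresponded to 51.9 TPM. Per length, the most abundant members were Vitvi09g01606 at 996 TPM, Vitvi01g00142 at 943 TPM and Vitvi04g01404 at 860 TPM, which were named after their values were seen. The least abundant was Vitvi18g00539 at 14.8 TPM, and the median member had 94.5 TPM. Fractional counts, which arise when a read is divided among genes, were found in 27 members (9.12%) and 8.11% of the class, Vitvi14g01330 and Vitvi04g01433 among them. The levels of these 27 depend on how reads were divided.

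The share of steady genes was highest in the class among the ranges of abundance compared, with ranges under 100 CPM not divided further. It was 15% in the class. Among genes of 1 to 10 CPM it was 0.708%, among those of 10 to 100 CPM 11.2%, and among the 89 genes of 1000 CPM or more 5.62%, or 5 genes. Counting error alone gave a median coefficient of variation of 12.6% between 1 and 10 CPM and of 4.52% between 10 and 100 CPM, against 1.90% in the class. Within the class the share was 16.9% for means under 200 CPM, 13.1% for means of 200 to 500 CPM and 6.57% for higher means.

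All 19 chromosomes held members, and 1 further member had an identifier starting with 00, with no assigned place. By identifier, chromosome 4 held 24 members, chromosome 8 held 23 and chromosome 11 held 20. As a share of the class on the same chromosome, members ran from 8.64% on chromosome 19 (7 of 81) to 21.1% on chromosome 11 (20 of 95) and 21.0% on chromosome 10 (17 of 81), against 15% overall. There were 4 pairs of members with adjoining identifier numbers, among 139 such pairs in the class. Besides Vitvi11g00700 and Vitvi11g00701 these were Vitvi01g00142 with Vitvi01g00143, Vitvi04g00066 with Vitvi04g00067, and Vitvi08g01322 with Vitvi08g01323. A further 31 pairs had 1 member and 104 pairs had 0.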

How the data were processed

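Per the labels' protocols, RNA of pooled deseeded berries was made into stranded mRNA libraries. The submitters' processing notes list STAR 2.7.9a with RSEM 1.3.3; for genome build, annotation and read filters, the sources used here give nothing. The authors deposited estimated counts (expected counts, unscaled) and TPM per gene, and all 12 columns were used. Counts were rounded, filtered by treatment with filterByExpr at its defaults, a minimum count of 10 and total of 15, and scaled by TMM. A count of 3, the limit that a count of 0 allows, corresponds to 0.169 to 0.202 CPM, for counting error only.

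GDPH was compared with urea over all 16030 genes by robust quasi-likelihood F tests in edgeR, adjusted by Benjamini-Hochberg at 0.05. DESeq2, limma on log2 TPM with a pseudocount of 1 or 0.1, RLE factors, library totals, other limits, the replicate block and each library left out were alternatives. Versions were DESeq2 1.42.0, limma 3.58.1 and edgeR 4.0.16 in R 4.3.3, and matplotlib 3.10.9 in Python 3.11.15. Standard errors were the absolute log2 ratio over the square root of its F statistic.

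The labels give separate plots. Libraries of a treatment differed beyond sampling noise, with a chi-square per degree of freedom of at least 15.5. Treatments share replicate numbers. Deviations from the treatment means correlated across genes by 0.337, 0.426 and 0.193 for same-numbered libraries of replicates 1, 2 and 3. For other pairs the values were -0.320 to 0.0084, and the numbers were taken to pair the plots. Deviations within a treatment cancel out, so low values in other pairs partly follow from high ones in same-numbered pairs. In members the same-numbered values were 0.264, 0.150 and 0.325, against -0.272 to 0.037 for others. This pairing comes from the data, since the labels describe a block layout without naming the block. The main fit left the pairing out, so standard errors, intervals and calls given without the block ignore it. With the block edgeR called 22.0% of all tested genes, against 14.7% without it.

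The members and all lists were chosen with earlier results of these data known. Named members were those with the narrowest (6) and widest (3) range, the highest (6) and lowest (3) mean, the highest and lowest ratio of GDPH to urea (3 each), and the 3 genes just outside the limit. Lists by gene role and marker lists could not be applied without names.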

Additional observations from a re-analysis of the deposited data

How the results depend on the processing

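Of the 14 other settings for the number of steady genes, 11 stayed within 1.5 times of 296, among them RLE factors (288), no filter (286) and unrounded counts (296). A limit on the ratio lower by 0.05 gave 169 genes and a limit higher by 0.05 gave 472, and leaving out 1 library gave 331 to 484. A coefficient of variation of at most 7.07%, which keeps as many genes, shared 272 with the list. Of the 296 members 284 kept within the limits with RLE, 152 with library totals and 38 in TPM, and 285 to 292 with 1 library left out. Members called were 11 with library totals, 3 with DESeq2 and 142 with limma on log2(TPM + 1). Of all tested genes these settings called 17.6%, 20.7% and 26.5%. With any 1 library left out 0 members were called. The rule used this contrast, so the counts of members are a description. The median log2 ratio of the members was -0.14 with totals, -0.25 on log2(TPM + 1), -0.26 on log2(TPM + 0.1) and 0.015 to 0.040 with 1 library left out. They took 5.52% of the counts of all tested genes under GDPH and 6.07% under urea. Scaling factors leave this share as it is, but the choice of genes level in TMM CPM ties it to the TMM factors. Over all genes the replicate block gave 3534 calls, limma on log2(TPM + 1) 4252, and 1 library left out 555 to 1443. The block changed no call of a member. Genes steady within each treatment numbered 856 with RLE, 876 with totals and 878 in TPM. These 3 settings and the calls by limma were chosen after seeing the data. The causes of these changes were not tested, except that library totals in place of TMM shift all ratios nearly alike by construction. The shift in TPM was not the same for every gene. From TMM CPM to TPM the log2 ratio went from -0.019 to -0.30 in Vitvi11g00700 and from 0.11 to -0.12 in Vitvi01g00777. With depth of this size, counting error alone gives a coefficient of variation up to 2.45% in a member.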
